A study of Mus musculus with 9 samples.

Results

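The 8 keratin genes described here are the luminal keratins Krt8, Krt18, Krt19 and Krt7 and the basal keratins Krt5, Krt14, Krt15 and Krt17, chosen by name from the 54532 genes of a raw count table and found there by their symbols. They were measured by RNA-seq in HC11 cells, a mouse mammary epithelial line whose labels give the strain as C57BL/6, grown in medium with 10% serum. There were 3 groups of 3 libraries: EpPT2, labelled as exposed to 660 nm light at 20 J/cm2, EpPT1, labelled 660 nm at 10 J/cm2, and Ctrl, labelled untreated. The treatment protocol instead names a 10 mW laser with 0.5 and 1 J/cm2, so the groups are called by their label names and no dose is drawn from them. The time between exposure and lysis was not given, and no label says whether the 3 replicates of a group were grown as separate cultures. The p-values therefore rest on the variation between the libraries at hand, part or all of which may be technical.

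Keratins are the intermediate filament proteins of epithelial cells, and each filament is built from obligate pairs of a type I and a type II chain. In the mammary duct the inner luminal cells are known for Krt8 and Krt18, joined by Krt19 and Krt7, and the outer basal or myoepithelial cells for Krt5 and Krt14, joined by Krt17 and, in some cells, Krt15. Of the 8 genes, Krt8, Krt7 and Krt5 code for type II chains and Krt18, Krt19, Krt14, Krt15 and Krt17 for type I chains. HC11 cells in culture are used as a model of mammary progenitor and secretory cells, and the ratio of luminal to basal keratins is a common way to place such a line.

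The members lie in the mouse genome's keratin clusters (build GRCm38, positions as in the count table). Krt8 (ENSMUSG00000049382, minus strand, 101996698 to 102004482) and Krt18 (ENSMUSG00000023043, plus strand, 102028180 to 102032027) are neighbours on chromosome 15, with 23698 bases between their starts. Krt7 (ENSMUSG00000023039, plus strand, 101411043 to 101430313) and Krt5 (ENSMUSG00000061527, minus strand, 101707070 to 101712898) are on the same chromosome, which makes Krt18 the only type I member in the type II cluster. The other type I members are on chromosome 11, all on the minus strand: Krt15 (ENSMUSG00000054146, 100131758 to 100135928), Krt19 (ENSMUSG00000020911, 100140810 to 100148665), Krt14 (ENSMUSG00000045545, 100203162 to 100207548) and Krt17 (ENSMUSG00000035557, 100256217 to 100261029).

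The start regions of 3 luminal keratins and of the basal Krt5 are shown because they set abundant keratins beside a scarce one on the same chromosome. Of the 8 members 5 matched an entry of the RefSeq promoter table by symbol, and 4 of these are shown. The Krt14 entry, which starts 1518 bases inside the gene, was left out. The Krt7 entry was kept although it starts 1360 bases inside its gene, so the Krt7 window also lies within the gene. The sequences are RefSeq promoters of build GRCm38.p6, 160 bases from 150 before the RefSeq start to 10 from it onwards, read 5′ to 3′ on the strand of the gene, at chr15:102004333-102004492 (minus) for Krt8, chr15:102028066-102028225 (plus) for Krt18, chr15:101412253-101412412 (plus) for Krt7 and chr15:101712896-101713055 (minus) for Krt5. Capitals mark ATAAA on the strand of the gene and GGGCGG, the GC box, on either strand, where it reads CCGCCC on the reverse.
Krt8: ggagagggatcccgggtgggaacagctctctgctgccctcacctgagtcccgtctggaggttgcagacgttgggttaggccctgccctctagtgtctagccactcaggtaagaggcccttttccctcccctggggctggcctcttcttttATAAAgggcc
Krt18: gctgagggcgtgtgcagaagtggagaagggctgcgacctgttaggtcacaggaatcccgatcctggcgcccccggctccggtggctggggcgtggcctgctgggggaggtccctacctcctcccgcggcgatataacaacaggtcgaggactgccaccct
Krt7: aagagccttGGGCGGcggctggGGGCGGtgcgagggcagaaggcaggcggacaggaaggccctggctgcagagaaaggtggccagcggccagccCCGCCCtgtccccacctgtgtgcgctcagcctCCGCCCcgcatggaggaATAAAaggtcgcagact
Krt5: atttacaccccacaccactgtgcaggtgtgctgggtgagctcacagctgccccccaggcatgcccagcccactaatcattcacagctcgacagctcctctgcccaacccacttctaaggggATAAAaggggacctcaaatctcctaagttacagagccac

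The ATAAA letters, part of many TATA boxes, began 29 bases before the start in Krt5, 7 before it in Krt7, and at the RefSeq start base itself in Krt8, and were not in the Krt18 window. Of all 32851 promoters in the RefSeq table, 15.7% held them in the same window. Other TATA-like letters, such as the tataa near the end of the Krt18 window, were not searched. Krt7 held the GC box at 4 places against 29.5% of all promoters that held it anywhere in the window, and Krt8, Krt18 and Krt5 did not hold it. The letters GCCNNNGGC, an AP-2 motif searched on both strands, were found at 2 places in Krt7 and at 1 place in Krt18, 83 bases before its start, and in 10.1% of all promoters. TGANTCA, the AP-1 motif searched on both strands, was found in none of the 4 windows and in 4.53% of all promoters. The 4 windows had 60.6% (Krt8), 66.9% (Krt18), 69.4% (Krt7) and 55.6% (Krt5) G and C bases, against a median of 53.8% over the table. The RefSeq start and the gene start of the count table differ by 140 bases for Krt8, 36 for Krt18, 1360 for Krt7 and 7 for Krt5, so these are windows around annotated starts, and a match is a string of letters and not a binding site.

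The libraries held 14549787 to 17228929 counts each, and 14471 of the 28724 genes with a count passed the filter on low counts and were tested. Mitochondrial genes took 6.06% to 7.48% of the counts in 4 libraries, which were EpPT2 replicates 2 and 3, EpPT1 replicate 3 and Ctrl replicate 3, and 2.74% to 3.62% in the other 5, so this share cut across the groups. The slope of log2 expression on the G and C content of genes was 0.0279 to 0.133 per 10 percentage points in EpPT2, -0.513 to 0.21 in EpPT1 and -0.653 to -0.382 in Ctrl, and so separated EpPT2 from Ctrl. Some libraries were most alike across groups. The chi-square per gene between their counts was 5.95 for EpPT2 replicate 1 and EpPT1 replicate 2. It was 16 for Ctrl replicate 2 and EpPT1 replicate 1. For EpPT2 replicates 2 and 3 against EpPT1 replicate 3 it was 8.17 and 9.66. Within EpPT2 it was 5.12 between replicates 2 and 3, but 121 and 122 between these and replicate 1. Within EpPT1 it was 81.8 to 161 and within Ctrl 55.9 to 174. Of the tested genes, 34.5% did not overlap between the 4 libraries with high mitochondrial shares and the other 5 (16.5% higher and 18.0% lower).

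HC11 libraries of all 3 groups showed a luminal keratin profile. The 4 luminal keratins summed to 2575 to 2778 CPM (the count scaled to library size with TMM, the trimmed mean of M values) in EpPT2, 2515 to 2862 CPM in EpPT1 and 2148 to 3511 CPM in Ctrl. The 4 basal keratins summed to 8.22 to 23.3 CPM in EpPT2, 7.44 to 24.1 CPM in EpPT1 and 4.59 to 19.6 CPM in Ctrl. Krt8, Krt18, Krt19, Krt7, Krt14 and Krt5 passed the filter on low counts, with Krt5 the lowest of them at 230 counts over the 9 libraries. Krt15 and Krt17 fell under it, with 23 and 13 counts in all.

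**Figure D1:**
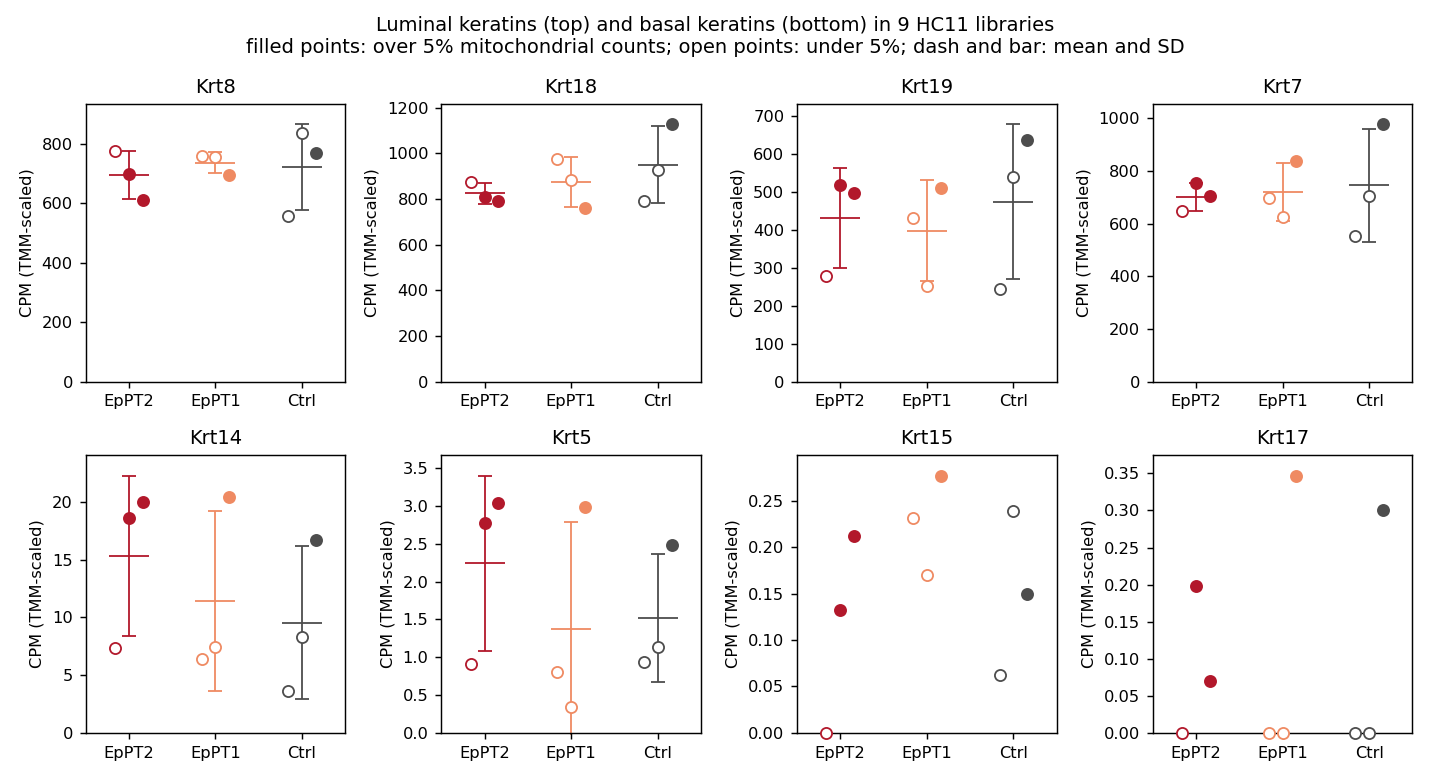
Levels of the 8 keratins in TMM-scaled CPM (y axes, from 0, a different range for each gene) in EpPT2, EpPT1 and Ctrl (x axes). Each point is a library, filled where mitochondrial counts were over 5% of the library; the dash and bar are the mean and SD of 3 libraries (not drawn for Krt15 and Krt17, and cut at 0 for Krt5 in EpPT1), and the filled points of Krt14, at 16.7 to 20.4 CPM, lie above its open points, at 3.60 to 8.31 CPM.

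Compared per kilobase of the gene length in the table, the median level over the 9 libraries was 608 CPM per kb for Krt18, 387 for Krt8, 268 for Krt19, 99.9 for Krt7, 4.73 for Krt14, 0.517 for Krt5, 0.0961 for Krt15 and 0 for Krt17. By the mean level per kilobase over the 9 libraries, Krt18 ranked 53 among the 14471 tested genes, Krt8 106, Krt19 188 and Krt7 473. By the same mean Krt14 ranked 6353 and Krt5 12000. The ranges of Krt18 (529 to 784 CPM per kb) and Krt8 (285 to 427) did not overlap. Those of Krt8 and Krt19 (132 to 344) did, as did those of Krt19 and Krt7 (78.5 to 139), although within each of the 9 libraries the order of the 4 luminal genes was the same. Krt14 (2.05 to 11.6 CPM per kb) and Krt5 (0.155 to 1.38) did not overlap, whereas Krt5, Krt15 (0 to 0.157) and Krt17 (0 to 0.223) did. The Krt7 length of 7049 bases joins the exons of 5 transcripts. With its coding transcript of 4094 bases its median was 172 CPM per kb, still below the 315 of Krt19 by the same measure.

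**Figure D2:**
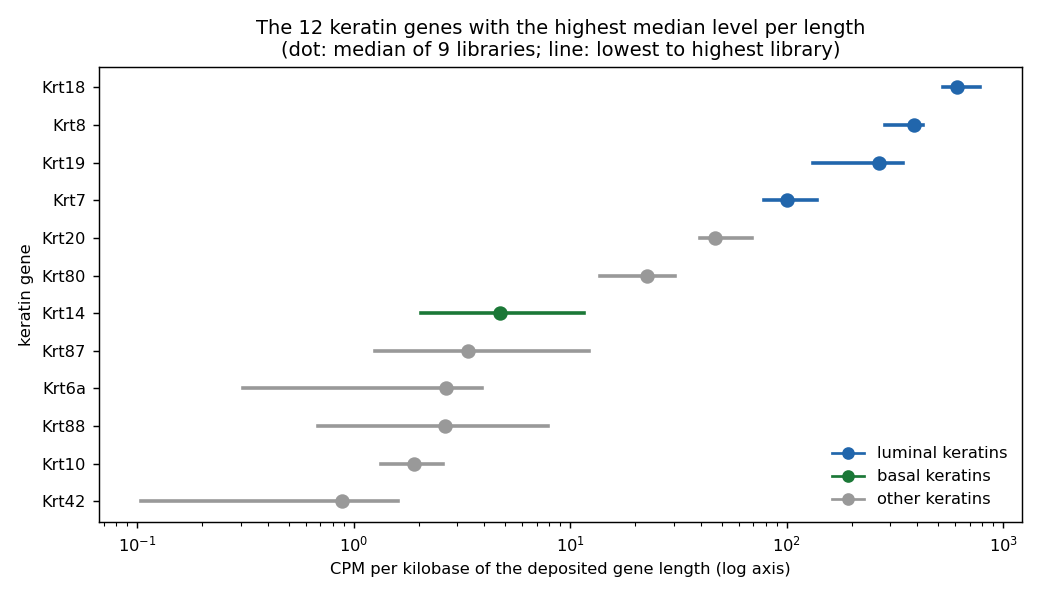
The 12 keratin genes with the highest median level, in CPM per kilobase of the deposited gene length (x axis, log scale), one gene per row. Dots are medians of the 9 libraries and lines run between the lowest and the highest library; the 4 luminal keratins lead, Krt20 and Krt80 follow, and Krt14 is the only basal keratin shown.

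Krt8, the main type II keratin of simple epithelia, had 775, 699 and 612 CPM in EpPT2, 758, 757 and 697 CPM in EpPT1, and 559, 836 and 770 CPM in Ctrl. The Ctrl libraries held both the lowest and the highest value, so both exposed groups lay within their range. The means were 695 ± 82.0 CPM in EpPT2, 738 ± 34.7 CPM in EpPT1 and 721 ± 145 CPM in Ctrl (SD, n = 3 each). Reads of Krt8 are partly ambiguous, since 29.7% of the 50-base stretches of its transcript also occur elsewhere among transcripts, most of them in the pseudogene Krt8-ps.

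Krt18, the type I partner of Krt8, had 874, 808 and 790 CPM in EpPT2, 976, 883 and 760 CPM in EpPT1, and 792, 927 and 1127 CPM in Ctrl. The highest value was in Ctrl replicate 3 and the lowest in EpPT1 replicate 3, and all 3 groups overlapped. The means were 824 ± 44.3 CPM in EpPT2, 873 ± 108 CPM in EpPT1 and 948 ± 169 CPM in Ctrl (SD, n = 3 each). Krt8 and Krt18 were the steadiest members, with coefficients of variation over the 9 libraries of 12.1% and 13.2%, against a median of 32.5% over the tested genes.

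Krt19, the smallest keratin, which lacks most of the tail domain of its relatives, had 278, 518 and 497 CPM in EpPT2, 431, 252 and 511 CPM in EpPT1, and 245, 539 and 638 CPM in Ctrl. Each group held a library at 245 to 278 CPM and another at 511 CPM or above, so the 2.6-fold spread between the lowest and highest library ran within groups. The group means were 431 ± 133 CPM in EpPT2, 398 ± 133 CPM in EpPT1 and 474 ± 204 CPM in Ctrl (SD, n = 3 each).

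Krt7, a type II keratin of ductal and glandular epithelia, had 648, 753 and 704 CPM in EpPT2, 697, 623 and 839 CPM in EpPT1, and 553, 704 and 977 CPM in Ctrl. As with Krt8 and Krt19, the lowest library was Ctrl replicate 1, and Ctrl spanned both exposed groups. The means were 702 ± 52.5 CPM in EpPT2, 719 ± 109 CPM in EpPT1 and 745 ± 215 CPM in Ctrl (SD, n = 3 each).

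Krt14, the type I keratin of basal cells, had 7.31, 18.6 and 20.0 CPM in EpPT2, 6.41, 7.42 and 20.4 CPM in EpPT1, and 3.60, 8.31 and 16.7 CPM in Ctrl. EpPT2 held 2 high libraries and EpPT1 and Ctrl held 1 each, and the groups overlapped. The means were 15.3 ± 6.95 CPM in EpPT2, 11.4 ± 7.83 CPM in EpPT1 and 9.53 ± 6.62 CPM in Ctrl (SD, n = 3 each). In counts this was 58 to 295 per library, and 13.9% of the 50-base stretches of Krt14 transcripts also occur in Krt16 or Krt17.

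Krt5, the type II partner of Krt14, had 0.914, 2.77 and 3.04 CPM in EpPT2, 0.808, 0.34 and 2.98 CPM in EpPT1, and 0.931, 1.14 and 2.48 CPM in Ctrl. These were 15, 42 and 43 counts in EpPT2, 14, 6 and 43 counts in EpPT1, and 15, 19 and 33 counts in Ctrl, with the same 4 libraries high as for Krt14. The group means were 2.24 ± 1.16 CPM in EpPT2, 1.38 ± 1.41 CPM in EpPT1 and 1.51 ± 0.84 CPM in Ctrl (SD, n = 3 each). Of the 50-base stretches of Krt5, 12.2% also occur in other transcripts, mainly of Krt6a.

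Krt15, a type I keratin that marks stem-like basal cells in skin, had 0, 2 and 3 counts in EpPT2, 4, 3 and 4 counts in EpPT1, and 1, 4 and 2 counts in Ctrl. Krt17, a type I keratin induced in stressed or injured skin, had 0, 3 and 1 counts in EpPT2, 0, 0 and 5 counts in EpPT1, and 0, 0 and 4 counts in Ctrl. At 0 of a library's counts, a level of up to 0.183 CPM was still possible in EpPT2 replicate 1, 0.173 and 0.17 CPM in EpPT1 replicates 1 and 2, and 0.186 and 0.179 CPM in Ctrl replicates 1 and 2 (limit of 3 counts, counting error only). The 4 libraries in which Krt17 was counted were those with high Krt14, and 3.99% of its 50-base stretches occur elsewhere, mainly in Krt14. Neither gene was tested, so whether the groups differed was left undecided at this depth.

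Between EpPT2 and Ctrl, none of the 6 tested keratins passed edgeR's quasi-likelihood test, and 0% of all 14471 tested genes did (Benjamini-Hochberg adjusted p under 0.05). At an unadjusted p under 0.05 there were 1763 genes, or 12.2%, and none of them was a keratin of the 8, while DESeq2 called 62 genes, also without a member. Krt14 had a log2 fold change of 0.69 (SE 0.63, 95% interval -0.706 to 2.08, edgeR adjusted p = 0.639) and Krt5 one of 0.57 (SE 0.79, interval -1.18 to 2.32). The luminal values lay nearer to 0, at -0.05 for Krt8 (SE 0.21, interval -0.524 to 0.418), -0.20 for Krt18 (SE 0.21, interval -0.659 to 0.253), -0.14 for Krt19 (SE 0.40, interval -1.02 to 0.746) and -0.09 for Krt7 (SE 0.24, interval -0.624 to 0.453). The lists' median log2 fold changes were -0.111 for the 4 luminal members and 0.626 for the 2 tested basal ones, beside -0.0312 over all tested genes. In 23.2% of the tested genes EpPT2 and Ctrl did not overlap, and none of the members was among them.

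G and C content moved with this comparison, since the slope on it separated EpPT2 from Ctrl and the members had 52.3% to 58.9%, above the median of 49.4% over the tested genes. With the trend on G and C content removed from each library, the log2 fold changes of EpPT2 against Ctrl were -0.59 for Krt8, -0.688 for Krt18, -0.707 for Krt19 and -0.26 for Krt7, and 0.152 for Krt14 and 0.0285 for Krt5. Krt8 and Krt18 then had unadjusted p of 0.0465 and 0.0276 (edgeR adjusted p = 0.798 for both). Which of the 2 sets of values is nearer to the cells' RNA levels was not tested.

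Between EpPT1 and Ctrl, none of the 6 tested keratins passed the test, and 0% of tested genes did in edgeR, with 568 genes (3.93%) at an unadjusted p under 0.05 and 1 gene called by DESeq2. The log2 fold changes were 0.03 for Krt8 (SE 0.21), -0.12 for Krt18 (SE 0.21), -0.25 for Krt19 (SE 0.40) and -0.05 for Krt7 (SE 0.24). Those of the basal genes were 0.26 for Krt14 (SE 0.63) and -0.14 for Krt5 (SE 0.79), and the adjusted p in edgeR lay between 0.991 and 0.996. The groups did not overlap in 5.26% of the tested genes and overlapped for each of the 6 members.

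Between EpPT2 and EpPT1, which share their libraries with the 2 comparisons above, none of the 6 tested keratins and 0% of the tested genes passed edgeR's test. There were 31 genes (0.214%) at an unadjusted p under 0.05, and DESeq2 called 0 genes. Krt5 had a log2 fold change of 0.71 (SE 0.79, interval -1.04 to 2.46) and Krt14 one of 0.42 (SE 0.62, interval -0.962 to 1.81). The luminal genes had -0.08 for Krt8 and Krt18 (SE 0.21 each), 0.12 for Krt19 (SE 0.40) and -0.04 for Krt7 (SE 0.24), with an edgeR adjusted p of 1 for each member. In 2.45% of the tested genes the groups did not overlap, and no member was among them.

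**Figure D3:**
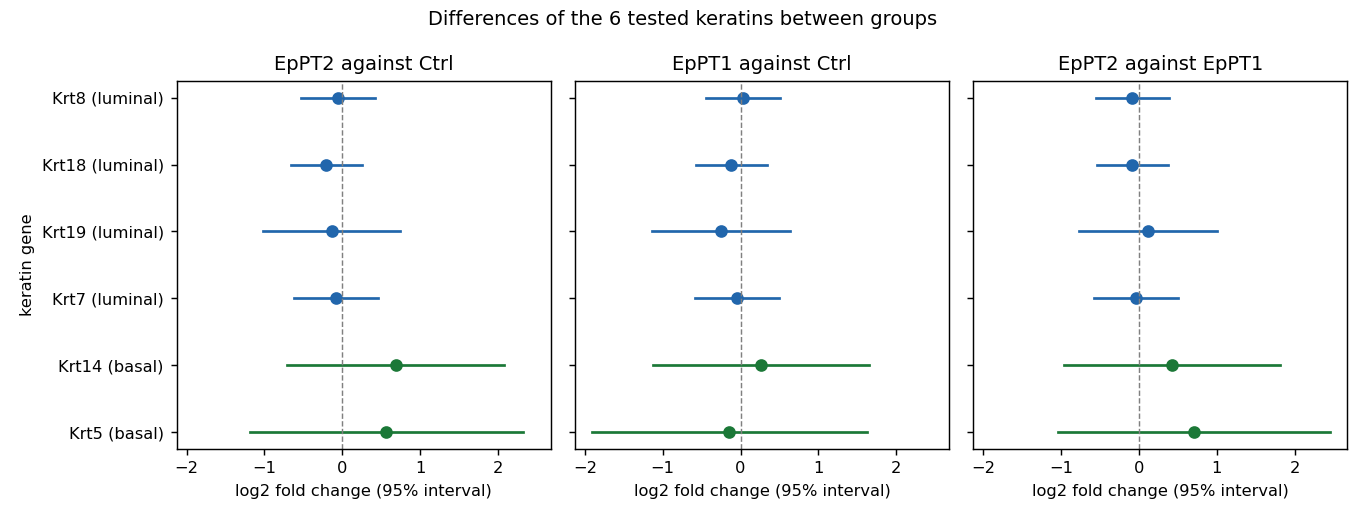
Log2 fold changes of the 6 tested keratins (x axes) in the 3 comparisons between groups, with luminal genes in blue above the basal genes in green. Dots are edgeR estimates and lines their 95% intervals, all of which cross 0; the intervals of Krt14 and Krt5 are the widest, as in EpPT2 against Ctrl, where that of Krt14 runs from -0.706 to 2.08.

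The intervals set what these data could show. For Krt8, Krt18 and Krt7 they did not reach 1 on the log2 scale in either direction in any comparison as fitted, but with the G and C trend removed the standard errors of Krt8 (0.259) and Krt18 (0.266) in EpPT2 against Ctrl leave room for a fall of more than 1. The interval of Krt19 reached down to -1.14 in EpPT1 against Ctrl and to -1.02 in EpPT2 against Ctrl as fitted. With the trend removed, its log2 fold change in EpPT2 against Ctrl was -0.707 (SE 0.377), which also leaves room for such a fall. The intervals of Krt14 and Krt5 reached beyond 1 in at least 1 direction in each comparison. A p that misses the threshold does not show that the levels were alike.

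Krt14 and Krt5, the tested basal keratins, fell into 2 sets of libraries that matched the split by mitochondrial share. Krt14 had 16.7 to 20.4 CPM in the 4 libraries with high mitochondrial shares and 3.60 to 8.31 CPM in the other 5, and Krt5 had 2.48 to 3.04 CPM and 0.34 to 1.14 CPM, with no overlap for either gene, as in 34.5% of all tested genes. The untested Krt15 overlapped, at 0.132 to 0.277 CPM in the 4 and 0 to 0.239 CPM in the other 5. The untested Krt17, with 13 counts in all, had 0.0706 to 0.347 CPM in the 4 and 0 in the other 5. Up to 0.186 CPM was still possible at 0 counts, so its split is uncertain. Within the 4 the library with the largest mitochondrial share, Ctrl replicate 3, had the lowest Krt14 and Krt5. Krt19 had 497 to 638 CPM in the 4 libraries and 245 to 539 CPM in the other 5, and Krt7 had 704 to 977 and 553 to 704 CPM, so that Krt19 overlapped and Krt7 just touched. Krt8 had 612 to 770 CPM against 559 to 836 CPM, and Krt18 had 760 to 1127 against 792 to 976 CPM, both overlapping widely. Within the 4 libraries Krt14 had 18.6 and 20.0 CPM in EpPT2, 20.4 CPM in EpPT1 and 16.7 CPM in Ctrl. Within the other 5 it had 7.31 CPM in EpPT2, 6.41 and 7.42 CPM in EpPT1, and 3.60 and 8.31 CPM in Ctrl. With the mitochondrial share as a covariate, the log2 fold change of Krt14 in EpPT2 against Ctrl was 0.454 (SE 0.267, edgeR adjusted p = 0.308) and that of Krt5 was 0.158 (SE 0.443). In EpPT1 against Ctrl they were then 0.397 (SE 0.264) for Krt14 and -0.286 (SE 0.439) for Krt5, and in EpPT2 against EpPT1 0.057 (SE 0.269) for Krt14 and 0.444 (SE 0.433) for Krt5. The part of the mitochondrial share in these levels was not tested. In bulk RNA, fewer cells of a type and less RNA per cell cannot be told apart.

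**Figure D4:**
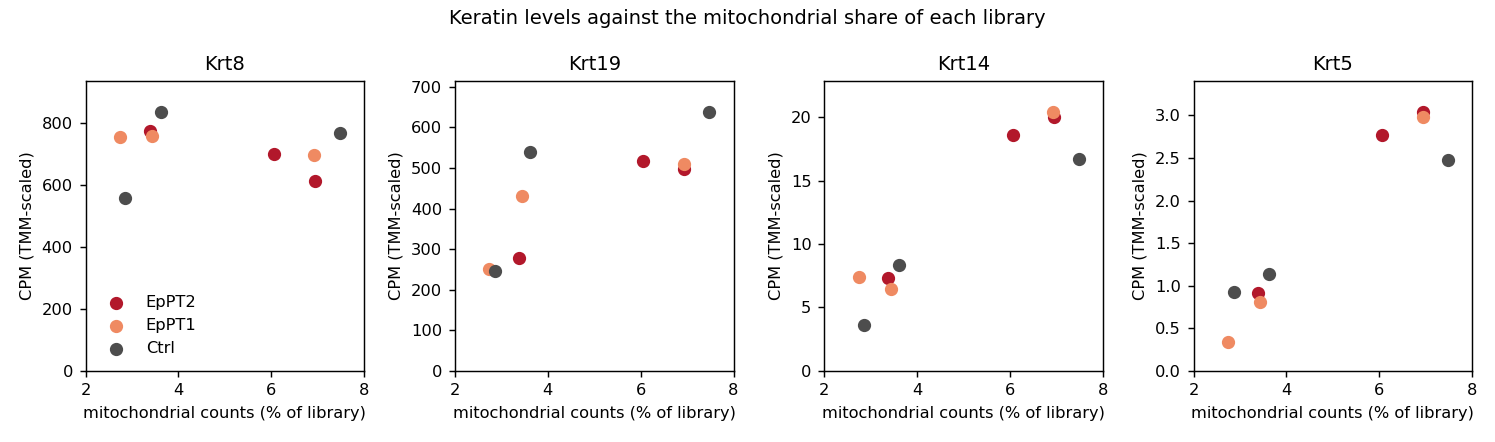
Levels of Krt8, Krt19, Krt14 and Krt5 in TMM-scaled CPM (y axes, from 0) against the percentage of each library's counts in mitochondrial genes (x axes), 1 point per library, coloured by group. Krt14 and Krt5 fall into a high and a low set that match the 4 libraries at 6.06% to 7.48% and the 5 at 2.74% to 3.62%, while Krt8 does not.

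The balance between the lists varied between libraries in the same way. Per kilobase, the basal members made up 0.366%, 0.914% and 1.04% of the 8 keratins' level in EpPT2, 0.295%, 0.363% and 1.03% in EpPT1, and 0.239%, 0.367% and 0.652% in Ctrl. The means were 0.773% ± 0.358 in EpPT2, 0.563% ± 0.406 in EpPT1 and 0.419% ± 0.211 in Ctrl (SD, n = 3 each), and the 3 groups overlapped. As plain counts the share was lowest in Ctrl replicate 1, at 0.213% (95% Wilson interval 0.17% to 0.268%, 74 of 34704 counts), and highest in EpPT2 replicate 3, at 0.887% (interval 0.797% to 0.988%, 330 of 37193 counts). Krt14 alone gave 81.7% to 94.4% of the basal level per kilobase.

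The balance of the filament chains was steadier. The type II members together had 0.562 ± 0.0723 times the level per kilobase of the type I members in EpPT2, 0.582 ± 0.0495 times in EpPT1 and 0.52 ± 0.0472 times in Ctrl (SD, n = 3 each). Krt8 had 0.618 ± 0.0435 times the level per kilobase of Krt18 in EpPT2, 0.624 ± 0.0522 times in EpPT1 and 0.56 ± 0.0879 times in Ctrl. With the coding transcript lengths the ratio of type II to type I was 0.619 ± 0.0762 in EpPT2, 0.642 ± 0.055 in EpPT1 and 0.575 ± 0.0413 in Ctrl, so its value depends on the length used. All 8 members took 0.219% to 0.318% of a library's counts.

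Of the 54 keratin genes in the table, 41 had a count, 18 were tested, and the 8 members held 91.1% of all keratin counts. Among the 23 other keratins of the list used here, 6 were tested and none passed in any comparison. The highest were Krt80, an epithelial keratin, at 88.0 to 194 CPM, Krt20, known from intestinal and urothelial lining cells, at 76.5 to 133 CPM, and Krt6a, known from hair follicles and injured skin, at 0.744 to 9.5 CPM. The smallest unadjusted p in EpPT2 against Ctrl belonged to Krt20 (log2 fold change -0.29, SE 0.23) and Krt36 (0.77, SE 0.82). In EpPT1 against Ctrl they belonged to Krt12 (-2.07, SE 1.24) and Krt20 (-0.30, SE 0.23), and in EpPT2 against EpPT1 to Krt12 (1.05, SE 1.25) and Krt6a (0.40, SE 0.83).

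The keratin anchors and partners, a list of 23 genes of desmosomes, hemidesmosomes and plakins with keratin-binding proteins, had 20 tested members, none of which passed. The most abundant were Ywhaz, a 14-3-3 protein, at 751 to 1338 CPM, Dst, a plakin of hemidesmosomes, at 359 to 1266 CPM, and Itga6, the hemidesmosome integrin chain, at 189 to 765 CPM. In EpPT2 against Ctrl the smallest p were those of Tchp, a keratin-binding protein, at a log2 fold change of 0.57 (SE 0.26, edgeR adjusted p = 0.409), and of Ywhaz at -0.50 (SE 0.24, adjusted p = 0.415). In EpPT1 against Ctrl they were those of Fbf1 (0.37, SE 0.24) and Dsc2 (-0.52, SE 0.36), and in EpPT2 against EpPT1 those of Ywhaz (-0.25, SE 0.24) and Tchp (0.21, SE 0.25). By mitochondrial share 11 of the 20, or 55%, did not overlap between the 4 libraries and the other 5. These were Dsp, Dst, Evpl, Itga6, Pkp3, Plec, Ppl, Sfn and Stub1, higher in the 4, and Jup and Pkp4, lower in them, beside 34.5% of all tested genes.

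Of 14 other intermediate filament genes, 8 were tested and none passed. Vim, the filament protein of mesenchymal and many cultured cells, had 586 to 2746 CPM, and the lamins Lmna and Lmnb1 had 302 to 596 and 162 to 315 CPM. The smallest p in EpPT2 against Ctrl were those of Prph (0.82, SE 0.45) and Lmna (0.43, SE 0.25), in EpPT1 against Ctrl those of Lmnb2 (0.61, SE 0.34) and Lmna (0.36, SE 0.25), and in EpPT2 against EpPT1 those of Prph (0.68, SE 0.45) and Bfsp1 (-0.86, SE 0.61), all as log2 fold changes. Per kilobase the median of Vim was 303 CPM per kb, between those of Krt8 and Krt19.

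Of 17 genes known to act on keratin promoters, 12 were tested and none passed. By median CPM the most abundant were Klf4, at 97.3 to 525 CPM, Nfe2l2, at 232 to 356 CPM, and Sp1, at 97.4 to 168 CPM, with Sp3 close behind at 96.8 to 206 CPM. Sp3, which binds GC boxes such as those printed for Krt7, had the smallest p in EpPT2 against Ctrl, with a log2 fold change of -0.70 (SE 0.26, edgeR adjusted p = 0.376), followed by the retinoic acid receptor Rarg at 0.64 (SE 0.29, adjusted p = 0.409). In EpPT1 against Ctrl the smallest were those of Cebpb (0.84, SE 0.46) and Sp3 (-0.46, SE 0.26), and in EpPT2 against EpPT1 those of Ets2 (-0.63, SE 0.56) and Sp3 (-0.24, SE 0.26). Trp63, the basal regulator known to act on Krt5 and Krt14, had 1 to 10 counts per library and was not tested, and it had 0.0706 to 0.3 CPM in the 4 libraries with high mitochondrial shares and 0.0577 to 0.566 CPM in the other 5.

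The label of mammary epithelial cells was checked against lineage genes beyond keratins. Epcam, an epithelial surface protein, had 17.7 to 44.8 CPM, while Cdh1, the epithelial cadherin, had 4 to 11 counts per library, and Kit had 0 counts in all libraries. Of the luminal lineage list 13 of 24 genes were tested and none passed, the most abundant being Cldn3 (79.4 to 617 CPM), Cd24a (110 to 318 CPM) and Elf3 (43.6 to 129 CPM). Gata3, Elf5, Pgr and Prlr, luminal regulators and hormone receptors, had at most 3 counts in any library, whereas Esr1, the oestrogen receptor, had 15.9 to 27.1 CPM. In EpPT2 against Ctrl the smallest p were those of Cldn3, a tight junction protein, at a log2 fold change of 1.56 (SE 0.56, edgeR adjusted p = 0.376), and of Stat5a, the prolactin-activated factor, at -0.42 (SE 0.19, adjusted p = 0.41). In EpPT1 against Ctrl they were those of Cldn3 (1.07, SE 0.56) and Cldn4 (0.94, SE 0.75), and in EpPT2 against EpPT1 those of Muc1 (1.36, SE 0.93) and Stat5a (-0.19, SE 0.19).

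Of the basal and myoepithelial list 8 of 21 genes were tested and none passed. Of the contractile genes that define myoepithelial cells, Acta2 had 0 to 6 counts, Cnn1 0 to 4 and Myh11 0 to 12 per library. Mylk, the kinase of myosin light chain, had 11 to 43 counts and was tested. Snai2, a listed gene that is not contractile, had 0 counts in all libraries. The most abundant were genes also known from progenitors, namely Tspan8 (189 to 310 CPM), Lgr5 (104 to 198 CPM) and Sox9 (95.8 to 166 CPM). The smallest p were those of Sox9 (log2 fold change -0.38, SE 0.21) and Procr (0.54, SE 0.55) in EpPT2 against Ctrl. In EpPT1 against Ctrl they were those of Sox9 (-0.31, SE 0.21) and Egfr (-0.20, SE 0.22), and in EpPT2 against EpPT1 those of Procr (0.35, SE 0.55) and Lgr5 (-0.12, SE 0.24). Procr had 128 to 149 CPM in the 4 libraries with high mitochondrial shares and 33.1 to 64.4 CPM in the other 5, and Jag2 3.08 to 5.68 and 0.808 to 2.94 CPM, and these were the 2 of the 8, or 25%, that did not overlap, beside 34.5% of all tested genes.

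Markers of other cell types gave no called gene in any comparison. Of 11 fibroblast markers 5 were tested, and their summed level, nearly all of it Dcn, was 762 to 2125 CPM in EpPT2, 745 to 2099 CPM in EpPT1 and 1302 to 3298 CPM in Ctrl, with Thy1 at 0 counts in all libraries and Lum and Postn at 0 in 8 of the 9. It was 1824 to 3298 CPM in the 4 libraries with high mitochondrial shares and 745 to 2151 CPM in the other 5. The smallest p in EpPT2 against Ctrl were those of Col1a1 (log2 fold change 1.28, SE 0.66) and Col3a1 (0.75, SE 0.75), in EpPT1 against Ctrl those of Col1a1 (1.19, SE 0.65) and Dcn (-0.54, SE 0.49), and in EpPT2 against EpPT1 those of Pdgfra (0.33, SE 0.48) and Col3a1 (0.20, SE 0.74). Of 9 blood and immune markers 3 were tested. The list summed to 98.7 to 117 CPM in the 4 libraries with high mitochondrial shares and 15.8 to 53.3 CPM in the other 5. Cd68 alone had 87.4 to 102 CPM in the 4 and 8.5 to 45.1 CPM in the other 5. Itgam did not overlap either, at 8.05 to 10.7 and 3.0 to 5.71 CPM. Csf1r overlapped, at 2.18 to 3.19 and 2.48 to 3.17 CPM. Of all tested genes 34.5% did not overlap between these sets. Ptprc had 1 to 11 counts per library and Adgre1 had 0 throughout. Itgam had log2 fold changes of 0.28 in EpPT2 against Ctrl, -0.21 in EpPT1 against Ctrl and 0.49 in EpPT2 against EpPT1 (SE 0.50 each), and Csf1r -0.11, 0.27 and -0.38 in the same order (SE 0.34 each). Of 7 fat cell markers and 6 endothelial markers 2 each were tested, Lpl and Pparg and Pecam1 and Vwf, with Adipoq at 0 to 3 counts and Emcn at 0. In EpPT2 against Ctrl their log2 fold changes were -0.42 for Lpl (SE 0.24), -0.43 for Pparg (SE 0.66), -0.66 for Pecam1 (SE 0.85) and -0.43 for Vwf (SE 0.75), and those of the other comparisons lay between -0.71 and 0.24. The part of these genes in the keratin levels was not tested.

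The genes whose pattern over the 9 libraries was most like that of a member were ranked among 9463 or 9464 genes with a mean of at least 5 CPM, by the root mean square difference of log2 CPM in SD units, where 0 is an identical pattern. For Krt14 they were Klhdc3 (0.109), Fads3 (0.111) and Tle6 (0.116), and for Krt5 they were Tmem131l (0.179), Rbm5 (0.226) and Becn1 (0.229). For Krt19 they were Ndrg1 (0.176), Nrn1 (0.177) and Snap91 (0.182), and for Krt7 Rabgef1 (0.221), Rnf25 (0.255) and Sra1 (0.262). Krt18 was nearest to Sec22b (0.27), Ik (0.315) and Pelo (0.318), and Krt8 to Rpl35a (0.367), Cfl1 (0.45) and Mea1 (0.454). The median over all compared genes was 1.32 to 1.45. Among the members, Krt7 and Krt19 (0.512) and Krt5 and Krt14 (0.556) were nearer to each other than Krt8 and Krt18 (0.811), but so were the luminal and basal pairs Krt7 and Krt14 (0.627), Krt19 and Krt5 (0.644), Krt19 and Krt14 (0.653) and Krt7 and Krt5 (0.757), and Krt8 and Krt5 were farthest apart (1.49). These likenesses are over libraries that fall into sets by mitochondrial share, and are a description only.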

How the data were processed

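RNA-seq libraries of 9 HC11 samples were analysed from the table of raw counts per gene that the authors deposited. The submitters' processing notes name Bowtie 0.12.2 and build mm8, yet 98.3% of the gene IDs found in GENCODE release 21 (GRCm38) have that annotation's start and end. The counter, strand setting and filters were not given in the sources used here. Counts of keratin copies, pseudogenes and antisense genes may therefore be shared. The deposited gene length, per the file header, served to compare genes.

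Genes past filterByExpr were fitted with edgeR 4.0.16 (R 4.3.3), TMM scaling, all 9 libraries and the quasi-likelihood test, two-sided, with Benjamini-Hochberg adjustment over 14471 genes and a threshold of 0.05. DESeq2 1.42.0 was an alternative, and leaving out each library, other scaling, no filter, the replicate block, mitochondrial share and G and C content were others. Every pair of libraries differed by more than sampling noise (at least 5.12 chi-square per gene), and each was counted as a sample. That check cannot show whether the libraries came from separate cultures. Totals of 14549787 to 17228929 counts gave a median SE of 0.368 to 0.369 on the log2 scale. Wilson intervals and limits of 3 counts cover counting error only, and intervals of fold changes rest on the variation between libraries. The mitochondrial split at 5% was set after the shares were seen.

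The members and lists were chosen with earlier results of these data known. All members are named. Of the other lists the genes past the test are named, or else the 2 with the smallest unadjusted p in each comparison and the 3 most abundant. The nearest patterns are the 3 closest genes with a mean of at least 5 CPM, without predicted genes, clones and pseudogenes. Markers of the label check and those that define other cell types were named after their values were seen.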

Additional observations from a re-analysis of the deposited data

How the results depend on the processing

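The number of keratins called was 0 in each comparison under all alternatives run, although unfiltered fits called 2 genes (EpPT2 against EpPT1), 32 (EpPT1 against Ctrl) and 268 (EpPT2 against Ctrl) and DESeq2 called 0, 1 and 62 in the same order, against 0 in each main comparison. Of 270 fold changes of the 6 members under the 15 alternatives, 244 kept their direction, 26 turned, 4 had an unadjusted p under 0.05, and the lowest adjusted p was 0.183. With mitochondrial share as covariate, Krt19 in EpPT2 against EpPT1 turned to -0.123 and Krt7 in EpPT1 against Ctrl to 0.00477. With the G and C trend removed, Krt19 in EpPT2 against EpPT1 was -0.172, and Krt8 and Krt14 in EpPT1 against Ctrl were -0.254 and -0.137. The cause was not tested.

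Leaving out a library in turn, the log2 fold changes in EpPT1 against Ctrl ranged from -0.12 to 0.153 for Krt8, -0.232 to 0.0216 for Krt18, -0.563 to 0.0201 for Krt19, -0.222 to 0.193 for Krt7, -1.38 to 0.392 for Krt5 and -0.457 to 0.934 for Krt14. In EpPT2 against Ctrl they ranged from -0.206 to 0.0653 for Krt8, -0.45 to 0.135 for Krt19 and -0.26 to 0.157 for Krt7. In EpPT2 against EpPT1 they ranged from -0.176 to 0.000674 for Krt8, -0.176 to 0.0112 for Krt18, -0.129 to 0.347 for Krt19 and -0.129 to 0.0869 for Krt7. For the basal genes the range in EpPT2 against Ctrl was 0.293 (without Ctrl replicate 1) to 1.36 (without Ctrl replicate 3) for Krt14 and 0.286 (without EpPT2 replicate 3) to 1.1 (without Ctrl replicate 3) for Krt5. In EpPT2 against EpPT1 it was 0.138 (without EpPT1 replicate 1) to 1.14 (without EpPT1 replicate 3) for Krt14 and 0.246 (without EpPT1 replicate 2) to 1.95 (without EpPT1 replicate 3) for Krt5.

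The replicate numbers paired the libraries only in part. Same-numbered deviations from the group means correlated at 0.627 to 0.729 for replicate 3, 0.149 to 0.732 for replicate 1 and -0.636 to 0.0635 for replicate 2. The replicate 3 libraries were all among the 4 with high mitochondrial shares. With the replicate block 0 genes were called in each comparison. Krt14 in EpPT2 against Ctrl was then 0.827 (edgeR unadjusted p = 0.0262, adjusted p = 0.183), with an SE of 0.324 against 0.626 in the main fit. Basal shares and levels moved by less than 1 SD with other lengths or without TMM scaling. Krt15 and Krt17 were limited by depth, and Krt5 rests on 6 to 43 counts per library.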

Other observations

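Outside the lists used above, 6 further keratin genes were tested. Krt87, Krt88 and Krt90, named here after their values were seen, were split between the libraries as Krt14 and Krt5 were. Krt87 had 22.9 to 27.9 CPM in the 4 libraries with over 5% mitochondrial counts and 2.85 to 7.64 CPM in the other 5. Krt88 had 5.74 to 7.13 CPM in the 4 and 0.62 to 2.38 CPM in the other 5, and Krt90 had 2.03 to 3.25 CPM and 0.744 to 1.1 CPM. The other 3 overlapped, with Krt42 at 1.28 to 2.82 CPM in the 4 and 0.183 to 2.19 CPM in the other 5, Krt33b at 0.555 to 0.706 and 0.366 to 1.44 CPM, and Krt33a at 0.208 to 0.918 and 0.186 to 0.914 CPM. For Krt87, Krt88 and Krt90 EpPT2 held 2 of the high libraries, and EpPT1 and Ctrl held 1 each. None of the 6 tested genes of the list of other keratins, and none of the 4 luminal keratins, was split in this way. Of all tested genes 34.5% did not overlap in either direction, and 16.5% were higher in the 4 libraries without overlap. The part of the mitochondrial share in these levels was not tested.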
